A study of Drosophila melanogaster with 7 samples.

Results

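Dpt, DptB, Dro, Mtk and Def encode antimicrobial peptides: the diptericins (Dpt, called DptA in newer annotations, and DptB), Drosocin, Metchnikowin and Defensin. They were picked by gene symbol and make up 5 of the 14804 genes listed in each library, all on chromosome arm 2R. Mean abundance put 4 of them, all but Def, among the 7575 genes tested. Their mRNA was measured by paired-end RNA sequencing of dissected fat bodies of wandering Drosophila melanogaster larvae, with tissue from 40 larvae in each library. In the RasV12 group the Bx-GAL4 driver was crossed to UAS-RasV12, an activated form of the small GTPase Ras, and in the control group the same driver was crossed to w1118, so that both groups carried Bx-GAL4. Bx-GAL4 is used to drive expression in the wing disc and the salivary gland. The fat body was therefore read out as a responding tissue, in a model of gland overgrowth. Each group had 3 replicates, and control replicate 3 was sequenced in 2 runs, of which the deeper one, 3A, is used here unless stated.

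The fat body is the main source of antimicrobial peptides released into the hemolymph of an infected fly. Peptidoglycan of Gram-negative bacteria activates the Imd pathway through peptidoglycan recognition proteins (PGRPs), which ends in cleavage of the NF-kB factor Relish. Gram-positive bacteria and fungi activate the Toll pathway, which frees the factors Dif and Dorsal from the inhibitor Cactus. The diptericins and Drosocin are classical readouts of Imd signalling, Drosomycin (Drs) is the classical readout of Toll signalling, and Metchnikowin responds to both pathways.

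The libraries held between 2910838 fragments (control 3A) and 7328089 fragments (control 2), as computed from the deposited confidence bounds. Values are FPKM, the fragments of a gene divided by its exon length and by the mapped reads of the library, scaled to a common upper quartile, which multiplied the libraries by 0.832 to 1.24. Duplicate reads had been removed upstream, which can lower the value of a short, abundant transcript. Summed over the fat body markers the level was 115544 to 174588 scaled FPKM in the controls and 68235 to 117508 in the RasV12 libraries, so the labelled tissue was present throughout. RasV12 replicate 3 stood apart for the genes described here. It was the library with the highest value for all 5 of them, against 13.7% of all genes tested. The tests of the 4 genes are therefore also given without it. Nothing in the labels says whether replicates came from separate crosses, and p-values measure the spread between these libraries. In such bulk samples fewer cells of a type and less RNA per cell cannot be told apart.

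The summed FPKM of the 5 peptide genes was 0.0236%, 0.0232% and 0.0246% of all FPKM in control 1, 2 and 3A. It was 0.0947%, 0.0466% and 0.578% in RasV12 1, 2 and 3. The controls lay close together, all RasV12 libraries lay above them, and RasV12 3 lay far above the other two. In fragments the controls held 210, 251 and 94, and RasV12 1, 2 and 3 held 478, 416 and 5881.

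The diptericins are glycine-rich peptides active against Gram-negative bacteria. Dpt (FBgn0004240) lies at 2R:14753270-14753765 and DptB (FBgn0034407) at 2R:14754895-14755400 (BDGP5), 1129 bases apart. Dpt was at 70.9, 47.0 and 80.8 scaled FPKM in control 1, 2 and 3A and at 147, 83.4 and 1285 in RasV12 1, 2 and 3. All RasV12 libraries were above all controls, but RasV12 2 (72.6 to 95.4, exact 95% Poisson interval of its fragments) and control 3A (60.9 to 105) overlapped within counting error. These intervals cover counting error only. The group means were 66.2 ± 17.4 (SD, n = 3) in the controls and 505 ± 676 (SD, n = 3) in the RasV12 libraries.

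The difference in Dpt was 1.94 on the log2(scaled FPKM + 1) scale (SE 0.96, limma adjusted p = 0.574), which did not pass the threshold of 0.05. An exact permutation test of the 20 ways to split the 6 libraries gave a two-sided p of 0.1, the smallest that 3 against 3 libraries allow. RasV12 3 held 84.8% of the summed Dpt level of the RasV12 group. Without RasV12 3 the log2 difference was 0.77 (limma adjusted p = 0.325).

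DptB was at 44.9, 74.3 and 31.6 scaled FPKM in control 1, 2 and 3A and at 101, 44.3 and 1366 in RasV12 1, 2 and 3. The groups overlapped, since RasV12 2 lay below control 2 and next to control 1. The means were 50.2 ± 21.8 in the controls and 504 ± 748 in the RasV12 libraries (SD, n = 3 each). The log2 difference of 1.93 (SE 1.19) did not pass the test (limma adjusted p = 0.627, two-sided exact permutation p = 0.3). RasV12 3 held 90.4% of the summed level, and without it the log2 difference was 0.49 (limma adjusted p = 0.630).

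Drosocin is a proline-rich, O-glycosylated peptide active against Gram-negative bacteria. Dro (FBgn0010388, 2R:10633461-10633821) was the least abundant of the 4 tested genes, at 2.19, 5.46 and 5.47 scaled FPKM in control 1, 2 and 3A and at 9.50, 11.6 and 189 in RasV12 1, 2 and 3. The groups did not overlap. The control values rested on 2, 6 and 2 fragments and those of RasV12 1 and 2 on 7 and 16, so the interval of RasV12 1 (3.82 to 19.6) overlapped those of all controls. Only RasV12 3, with 206 fragments, was clear of them. The log2 difference was 2.52 (SE 1.09, limma adjusted p = 0.545, two-sided exact permutation p = 0.1). Without RasV12 3 it was 1.17 (limma adjusted p = 0.202).

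Metchnikowin is a proline-rich peptide active against fungi and Gram-positive bacteria. Mtk (FBgn0014865, 2R:11296351-11296621) was at 50.2, 39.5 and 104 scaled FPKM in control 1, 2 and 3A and at 418, 132 and 1260 in RasV12 1, 2 and 3. The groups did not overlap. RasV12 1 (355 to 490) and RasV12 3 (1167 to 1359) were also clear of all control intervals, whereas RasV12 2 (106 to 162) overlapped control 3A (62.9 to 163). The means were 64.7 ± 34.8 in the controls and 603 ± 586 in the RasV12 libraries (SD, n = 3 each).

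The difference in Mtk was 2.78 on the log2 scale (SE 0.81). Its unadjusted limma p of 0.0120 was the 213th smallest among the 7575 genes, and its adjusted p was 0.421. The two-sided exact permutation p was 0.1. RasV12 3 held 69.6% of the summed Mtk level, less than for any of the other 4 genes. Without RasV12 3 the log2 difference was 1.97 (limma adjusted p = 0.206), and without RasV12 2 it was 3.59 (limma adjusted p = 0.335).

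Defensin is a cysteine-stabilized peptide active mainly against Gram-positive bacteria. Def (FBgn0010385, 2R:5941683-5942081) lies within the span of magu (2R:5940048-5951218). Def was listed at 0 in all controls and in RasV12 1, at 0.588 scaled FPKM in RasV12 2 and at 3.70 in RasV12 3. These values rest on 1 and 5 fragments, and the exact interval of RasV12 3 was 1.20 to 8.63. The upper bound of a count of 0 was 3.29, 2.79 and 8.53 scaled FPKM in control 1, 2 and 3A. Those of control 1 and 2 lay below the value of 3.70 in RasV12 3. All of them lay above the lower end of its interval, so RasV12 3 was not clear of the controls within counting error. Def was too low for the main test, and no fold is given. A fit with no filter on abundance gave a log2 difference of 0.97 (SE 0.55, limma adjusted p = 0.593), and the two-sided exact permutation p was 0.4. The overlapping gene magu was at 15.1 to 24.9 scaled FPKM in the controls and at 6.54 to 15.5 in the RasV12 libraries, with 15.5 in RasV12 3.

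**Figure D1:**
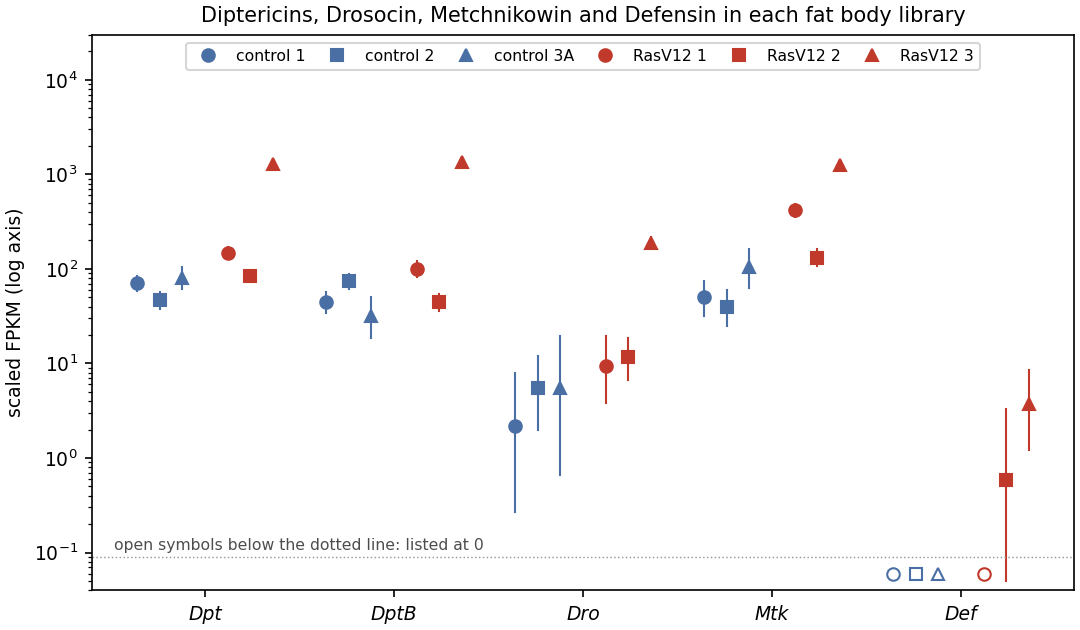
Scaled FPKM (log axis) of Dpt, DptB, Dro, Mtk and Def in the 3 control (blue) and 3 RasV12 (red) libraries, with exact 95% Poisson intervals of the fragments behind each value (lower ends drawn no lower than the bottom of the plot). RasV12 3 is the highest point for every gene, at 1285 for Dpt, 1366 for DptB, 189 for Dro, 1260 for Mtk and 3.70 for Def, and open symbols mark libraries in which Def was listed at 0.

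Across all genes tested, 0.106% (8 of 7575) passed the adjusted threshold of 0.05 with over 2-fold change in either direction, and 0 of the 4 tested peptide genes did. At an unadjusted p under 0.05 and over 2-fold higher in RasV12 the share was 2.32% (176 genes), and 1 of the 4, Mtk, was among them. That count depended on the processing: it was 3 without scaling (Dpt, Dro and Mtk), 4 without RasV12 2, and 2 without RasV12 1 or RasV12 3 (Dro and Mtk). The count over all genes moved too, to 254 of 7575 without scaling and 118 of 7300 without RasV12 2. It was 275 of 7568 without RasV12 1 and 301 of 7592 without RasV12 3. In 7.67% of genes tested (581) all 3 RasV12 libraries were above all 3 controls. This held for 3 of the 4, namely Dpt, Dro and Mtk. With so few calls over all genes, the count of 0 says little about the 4 genes.

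The size of the change differed widely between the RasV12 libraries. In RasV12 3 the fold over the control mean was 19.4 for Dpt, 27.2 for DptB, 43.2 for Dro and 19.5 for Mtk. Ranked by that fold with a pseudocount of 1, they were at places 11 (Dro), 13 (DptB), 18 (Mtk) and 19 (Dpt) of the 7575 genes tested in this library. In RasV12 1 the folds were 2.22 for Dpt, 2.00 for DptB and 2.17 for Dro, close together, and 6.47 for Mtk. In RasV12 2 they were 1.26, 0.882 and 2.65 for Dpt, DptB and Dro, and 2.04 for Mtk. In RasV12 2 DptB lay within the control range and Dpt just above it.

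**Figure D2:**
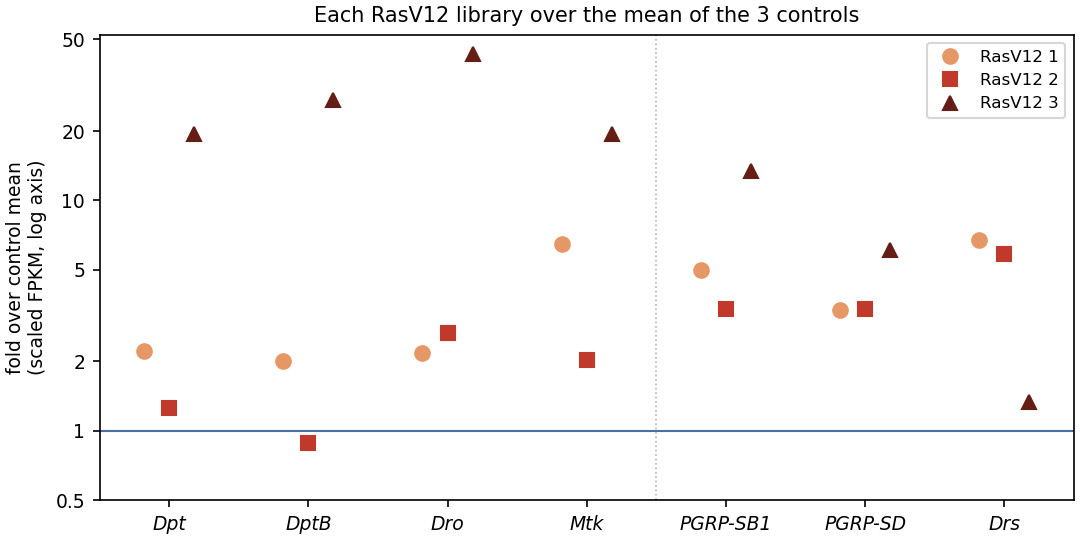
Fold over the mean of the 3 controls (scaled FPKM, log axis) in each RasV12 library for the 4 tested peptide genes, left of the dotted line, and for PGRP-SB1, PGRP-SD and Drs, right of it; the blue line marks the control mean. Dpt, DptB, Dro and Mtk are highest in RasV12 3 (19.4 to 43.2), whereas Drs is highest in RasV12 1 (6.76) and lowest in RasV12 3 (1.34).

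Per unit length, the order of the peptide genes changed between libraries. Mtk led in control 3A, RasV12 1 and RasV12 2, Dpt led in control 1, and DptB led in control 2 and RasV12 3. Dro was next to last and Def last in every library. In RasV12 3 the top places were close, with DptB at 1366 (1312 to 1423), Dpt at 1285 (1236 to 1335) and Mtk at 1260 (1167 to 1359) scaled FPKM, and the interval of Mtk overlapped those of both diptericins. Among all genes of RasV12 3, DptB ranked 78th, Dpt 91st, Mtk 95th, Dro 543rd and Def 5938th.

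Ratios within a library need no scaling between libraries. Mtk gave 15.97%, 18.6% and 25.7% of the fragments of Mtk and Dpt together in control 1, 2 and 3A. The shares were 42.8% (37.6% to 48.1%, exact Clopper-Pearson 95% interval), 29.9% (24.8% to 35.4%) and 20.4% (19.0% to 21.8%) in RasV12 1, 2 and 3. RasV12 1 was above the intervals of all controls, and RasV12 3, which had the most of both transcripts, lay among the control shares. The log2 ratio of Mtk to Dpt differed by 0.84 between the groups, with a two-sided exact permutation p of 0.2.

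DptB gave 34.6%, 57.0% and 24.7% of the fragments of both diptericins in control 1, 2 and 3A, and 36.4%, 30.8% and 47.0% in RasV12 1, 2 and 3. The controls alone spanned the whole range, and the log2 ratio of DptB to Dpt differed by -0.01 between the groups (two-sided exact permutation p = 1). In control 2, DptB exceeded Dpt with an interval of 50.2% to 63.5%. Dro gave between 1.63% and 5.88% of the fragments of Dro and Dpt in the controls and between 3.33% and 7.23% in the RasV12 libraries (log2 ratio difference 0.81, two-sided exact permutation p = 0.3).

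**Figure D3:**
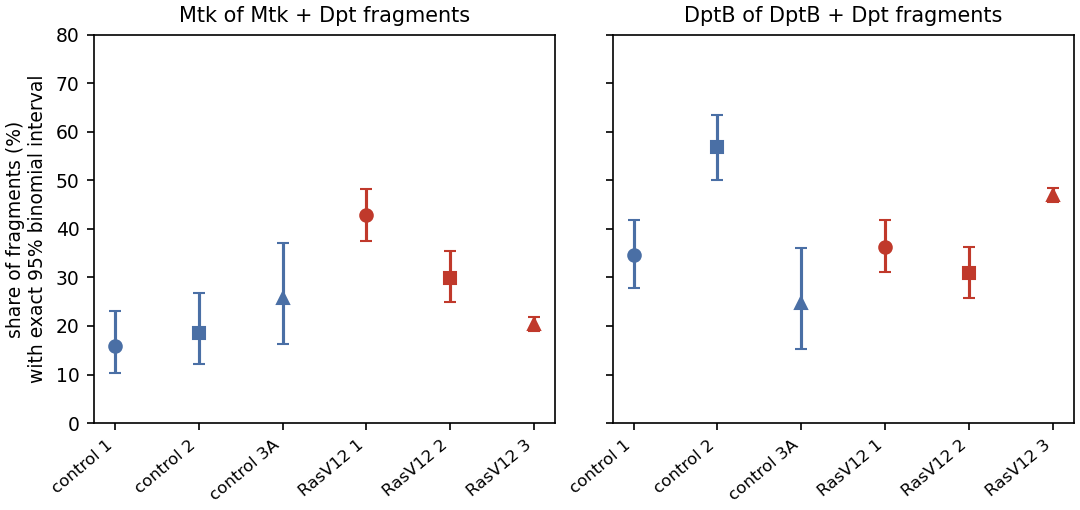
Share of fragments (%) that Mtk gave of Mtk and Dpt together (left) and that DptB gave of both diptericins (right) in each library, with exact 95% binomial intervals. The Mtk share is highest in RasV12 1 (42.8%) and 20.4% in RasV12 3, and the DptB share is highest in control 2 (57.0%).

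Both runs of control replicate 3 show how far a value moved by sequencing alone. Run 3B held 855836 fragments. Dpt was at 65.4 FPKM (55 fragments) in run 3A and 34.1 FPKM (10 fragments) in run 3B, and Mtk at 84.4 FPKM (19 fragments) and 44.2 FPKM (4 fragments). DptB was at 25.5 FPKM (18 fragments) in run 3A and 43.8 FPKM (11 fragments) in run 3B. Dro had 2 fragments in run 3A and 0 in run 3B, and Def had 0 in both. The runs thus differed by up to 1.92-fold in unscaled FPKM in genes above 0 in both, in either direction, which is less than the folds in RasV12 3. Run 3B rested on 4 to 11 fragments for these genes, so its spread is no measure of the deeper RasV12 1. In RasV12 1 the interval of Dpt (203 fragments, 128 to 169 scaled FPKM) was clear of all control intervals. That of DptB (83.1 to 120.6) overlapped control 2 (61.9 to 88.4).

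The correlation of log2 values over the 6 libraries was between 0.81 (DptB and Mtk) and 0.95 (Dpt and Dro) for the pairs of tested peptide genes. Without RasV12 3 it was lower for 5 of the 6 pairs, at 0.29 for Dpt and DptB, 0.30 for DptB and Dro, 0.38 for DptB and Mtk, 0.47 for Dpt and Dro, and 0.68 for Dro and Mtk. For Dpt and Mtk it was 0.92 with and 0.96 without that library. These values describe so few libraries of unequal depth, and no test was made.

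Of 9 other antimicrobial peptide genes, 8 were tested. All 8 had a higher mean log2 level in RasV12, with a median log2 difference of 2.91 against 0.00 over all genes, and 0 passed the adjusted threshold. AttB, CecA2 and CecB averaged 0, 0.625 and 0.951 scaled FPKM in the controls. They reached the mean FPKM of 1 only through RasV12 libraries, so their higher level there was in part set by the filter. AttB, listed at 0 in all libraries but RasV12 3, is counted in that median at 3.15. CecA2, which encodes a cecropin, and Drs had an unadjusted p under 0.05, as did 9.40% of all genes tested. CecA2 was at 0, 1.87 and 0 scaled FPKM in the controls and at 23.8, 3.73 and 275 in RasV12 1, 2 and 3 (log2 difference 4.49, SE 1.39, limma adjusted p = 0.436). It shared with the diptericins its peak in RasV12 3 and its low value in RasV12 2. CecA1 and CecA2 are close copies, so that reads may have been split between them.

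Drs was at 152, 259 and 662 scaled FPKM in the controls and at 2419, 2098 and 479 in RasV12 1, 2 and 3 (log2 difference 2.18, SE 0.77, limma adjusted p = 0.510). It was the exception among the 8 in its order, since its value in RasV12 3 lay within the control range while the other 7 were highest in RasV12 3. Its folds over the control mean were 6.76, 5.87 and 1.34. Those of Mtk, 6.47, 2.04 and 19.5, were near those of Drs in RasV12 1 and near those of Dpt in RasV12 3. In RasV12 2 the fold of Mtk was well below that of Drs. The fold of Mtk in RasV12 1 was not particular to it and Drs, since CecC, another cecropin gene, was at 6.21 and PGRP-SB1 at 5.01 there. Whether any of these genes differ from each other in this respect was not tested.

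The Imd pathway list held 31 genes, of which 29 were tested. Of these, 19 had a higher and 10 a lower mean in RasV12, with a median log2 difference of 0.05, and 0 passed the adjusted threshold. An unadjusted p under 0.05 was found in 4, all higher in RasV12, or 13.8% of the list against 9.40% of all genes tested. Of the recognition proteins, PGRP-SD, a secreted PGRP, was at 28.1, 45.4 and 74.0 scaled FPKM in the controls and at 165, 166 and 300 in RasV12 1, 2 and 3. The groups did not overlap, and the log2 difference was 2.12 (SE 0.40, limma adjusted p = 0.229). The transmembrane receptor PGRP-LC was at 13.6 to 16.1 in the controls and 15.8 to 21.3 in the RasV12 libraries (log2 difference 0.32, limma adjusted p = 0.567).

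Of 11 adaptors and kinase complex genes, which carry the signal inside the cell, the median log2 difference was 0.04 and 2 had an unadjusted p under 0.05. These were the kinase subunit ird5 (0.47) and the kinase partner Tab2 (0.43), with unadjusted limma p-values of 0.0127 and 0.0396. The adaptor imd had a log2 difference of 0.01 (limma adjusted p = 0.994). Rel, which encodes Relish, was at 68.0, 66.0 and 83.6 scaled FPKM in the controls and at 95.3, 74.2 and 129 in RasV12 1, 2 and 3. Its log2 difference was 0.42 (SE 0.23, limma adjusted p = 0.599), and RasV12 3 was again its highest library.

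Amidases and negative regulators of the pathway form a feedback layer, since several are Relish targets that degrade peptidoglycan or block the receptors. Of 13 tested, 7 were highest in RasV12 3, against 13.7% of all genes tested. PGRP-LF, PGRP-SC1a and PGRP-SC1b averaged 0, 0.226 and 0.181 scaled FPKM in the controls. They reached the mean FPKM of 1 only through RasV12 3, so their peak there was fixed by the filter. They are also among the 19 genes of the Imd list with a higher mean in RasV12. PGRP-SB1, a secreted amidase, was at 79.2, 53.9 and 124 scaled FPKM in the controls and at 430, 288 and 1146 in RasV12 1, 2 and 3, with a log2 difference of 2.67 (SE 0.55, limma adjusted p = 0.243). Its unadjusted limma p of 0.00211 was smaller than that of any of the 4 tested peptide genes. PGRP-LB, an amidase that dampens the response, was at 8.21, 14.4 and 7.70 in the controls and at 13.3, 9.13 and 54.6 in RasV12 1, 2 and 3 (log2 difference 0.90, limma adjusted p = 0.662). The receptor inhibitor pirk was at 1.32, 6.73 and 0.759 in the controls and at 2.61, 5.00 and 27.9 in RasV12 1, 2 and 3 (1.44, limma adjusted p = 0.625). For PGRP-LB and pirk, RasV12 3 stood alone and the other RasV12 libraries lay within the control range.

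All 19 genes of the Toll pathway list were tested, and 8 had a higher and 11 a lower mean in RasV12, with a median log2 difference of -0.02 and 0 past the adjusted threshold. Dif was the single gene with an unadjusted p under 0.05, 5.26% of the list against 9.40% of all genes tested. It was at 22.1, 21.3 and 16.9 scaled FPKM in the controls and at 31.8, 27.1 and 23.5 in RasV12 1, 2 and 3 (log2 difference 0.43, SE 0.17, limma adjusted p = 0.531). The inhibitor cact (0.03, limma adjusted p = 0.968) and the ligand spz (-0.27, limma adjusted p = 0.770) did not pass the test.

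**Figure D4:**
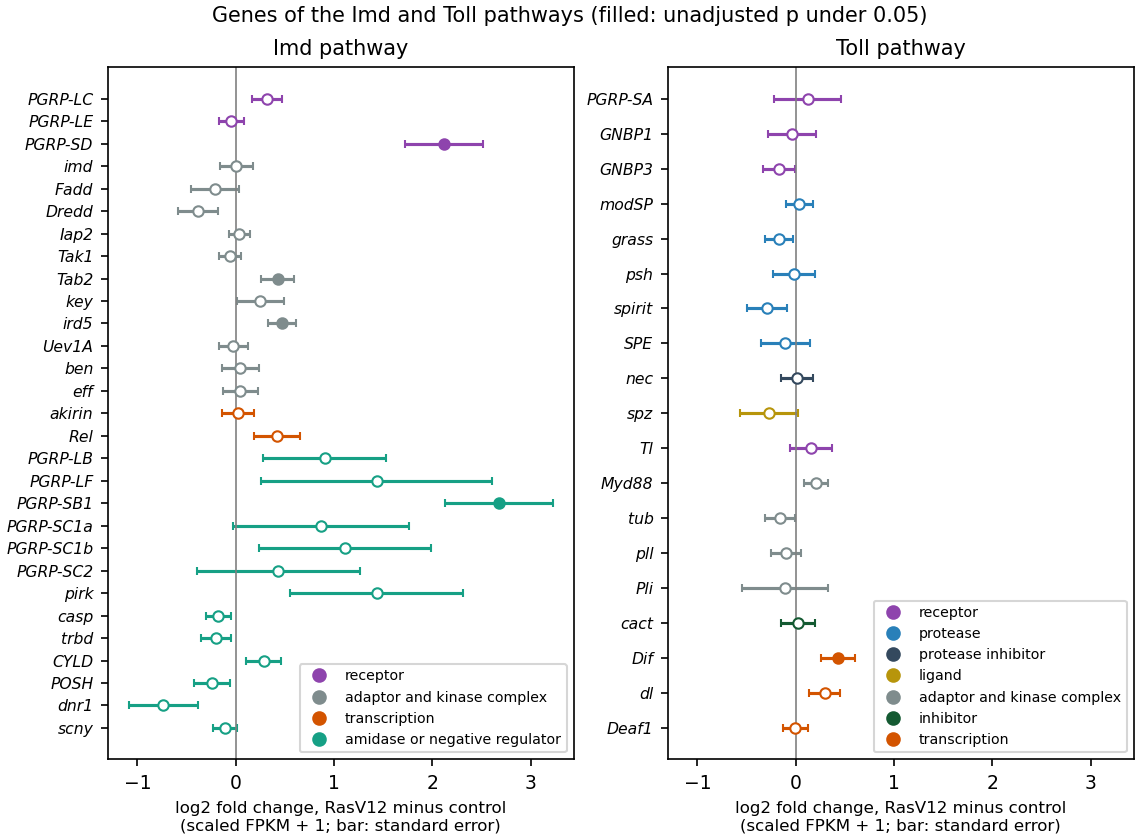
Log2 fold change, RasV12 minus control, with its standard error for the tested genes of the Imd (left, 29 genes) and Toll (right, 19 genes) pathway lists, coloured by role and filled where the unadjusted p was under 0.05. PGRP-SB1 (2.67) and PGRP-SD (2.12) lie farthest right among the filled points, and the Toll genes lie between -0.29 and 0.43.

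Markers of other cell types were read beside these genes. Of 12 hemocyte markers 9 were tested, and 5 (Hml, NimC1, He, Pxn and eater) had an unadjusted p under 0.05 and were higher in RasV12, against 9.40% of all genes tested at that p in either direction. Of the other 4, crq had a log2 difference of 0.22, srp of -0.18, PPO1 of -0.57 and PPO2 of -0.72. The list summed to 163 to 239 scaled FPKM in the controls and 209 to 289 in the RasV12 libraries. Hml was listed at 0 in the controls and RasV12 1 and at 13.9 and 10.98 in RasV12 2 and 3, and He was listed at 0 in the controls and RasV12 3. A value of exactly 0 can be a failed estimate, so these 2 of the 5 are uncertain. Both also reached the mean FPKM of 1 only through RasV12 libraries, so their higher level there was fixed by the filter. The crystal cell enzymes PPO1 and PPO2 were highest in RasV12 3, at 41.8 and 68.2, next highest in control 2, at 28.8 and 44.9, and lowest in RasV12 1, at 1.01 and 1.14. Midgut markers summed to 28.1 to 535 in the controls and 15.0 to 44.0 in the RasV12 libraries, salivary glue markers to 7.40 to 25.3 and 7.64 to 12.04, and testis markers to 3.73 to 7.90 and 16.4 to 156. The part of these cells in the level of the peptide genes was not tested.

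The genes most like the 4 tested peptide genes were ranked by Pearson r over the 6 libraries with the mean of their standardized log2 values, as a description. That mean was 1.85 in RasV12 3 and between -0.70 and 0.20 in the other libraries. A high r therefore largely marks a peak in RasV12 3. Among the genes named next, CecB, CecA2 and CG2217 reached the mean FPKM of 1 only through RasV12 libraries. The 10 closest were PCID2 (r = 0.987), CecB (0.985), CG2217 (0.972), Cyp12e1 (0.969), CG11951 (0.961), CG32185 (0.957), CG30459 (0.957), CG5131 (0.957), CecA2 (0.956) and CecA1 (0.954). Of these, the cecropins and CG32185, named edin in newer annotations, reached 173 to 600 scaled FPKM in RasV12 3, and the others stayed at or below 86.5. CecB was at 0, 0.713 and 2.14 scaled FPKM in the controls and at 4.24, 1.14 and 173 in RasV12 1, 2 and 3, and CG32185 at 0.798, 3.32 and 1.99 and at 2.96, 2.64 and 202. PCID2 ran parallel over a narrow range, from 8.50 to 8.71 in the controls and from 8.65 to 11.6 in the RasV12 libraries.

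Neighbouring genes were compared where the files list them. Of the genes next to a tested peptide gene, AttA, which encodes an attacin and lies 1045 bases after Dro, also peaked in RasV12 3. It was at 1.15, 13.1 and 2.21 scaled FPKM in the controls and at 7.24, 0.197 and 121 in RasV12 1, 2 and 3 (log2 difference 1.21, limma adjusted p = 0.816). Jheh3, 3693 bases before Dpt, was at 194 to 243 in the controls and 124 to 204 in the RasV12 libraries, and SRPK, before Mtk, was at 19.1 to 22.9 and 19.3 to 23.5. CG12858, sano and CG34365 were under 0.5 scaled FPKM in every library. RasV12 3 was not the highest library for Jheh3, SRPK, CG12858, sano or CG34365.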

How the data were processed

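Fat body RNA was sequenced on an Illumina HiSeq 2000. The authors mapped paired reads with TopHat 1.0.14, removed duplicates and deposited FPKM per gene with confidence bounds from Cufflinks 0.0.5 and an Ensembl BDGP5 annotation. The deposited starts count from 0 (2522 of 13467 gene lengths matched a newer annotation that way, 230 otherwise), and 1 was added. Fragments were recovered from the bounds, which lie 2 SD from each FPKM.

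FPKM were scaled to the 75th percentile of genes above 0. Testing used limma 3.58.1 (R 4.3.3, trended eBayes, Benjamini-Hochberg adjustment) on log2 values with a pseudocount of 1, over the 7575 genes whose FPKM averaged 1 or more, after a check on simulated data. Single values were tested by exact permutation of the 6 libraries. No count model was fitted to FPKM. A deposited table merging runs 3A and 3B was mostly 0.770 times run 3A and served as an alternative.

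Of the Imd, Toll and other peptide lists, genes with an unadjusted p under 0.05 are named, and always PGRP-LC, imd, Rel, PGRP-LB, pirk, Dif, cact, spz and PGRP-SD. Likeness was ranked as described beside it, and PPO1 and PPO2 were named after their values were seen. The 5 genes, the lists and the tests were chosen with earlier results of these data known. Alternatives changed the pseudocount, filter, scaling, variance model, replicate block, run of control 3 and each left-out library.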

Additional observations from a re-analysis of the deposited data

How the results depend on the processing

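Dpt, DptB, Dro and Mtk kept a higher mean in RasV12 in all 64 values from 16 alternatives, and in none of them did an adjusted limma p fall under 0.05 (lowest 0.202). Settings that changed only the filter, the variance model or the replicate block could not change the log2 difference. Their values in that count repeat the main ones, and only their p-values are new. Leaving out 1 library gave log2 differences of 0.77 to 2.73 for Dpt, 0.49 to 2.95 for DptB, 1.17 to 3.25 for Dro and 1.97 to 3.59 for Mtk, with the lowest value of each without RasV12 3. For Def the difference of mean log2 values, 0.97, was 2.68 with a pseudocount of 0.1 and 0.32 with 5, since all its controls were at 0, and 0.33 to 1.44 with 1 library left out.

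The 8 genes called over the whole table became 5 with a pseudocount of 5, 5 with run 3B as control 3 and 3 with the replicate block, and 5 to 61 with 1 library left out (61 without RasV12 3, 13 without control 3A, 5 without RasV12 2). The 249 genes at an unadjusted p under 0.05 and over 2-fold became 128 with a pseudocount of 5, 157 with a mean FPKM of at least 5, and 161 to 510 with 1 library left out (510 without RasV12 3, 161 without RasV12 2). Without scaling, the median of all genes moved by 0.20 on the log2 scale and 254 genes were higher and 47 lower, against 176 and 73.

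Libraries of equal replicate number were not the most alike: their deviations correlated at 0.09, -0.17 and -0.15, and control 2 correlated best with RasV12 3 (0.35). With only 3 libraries per group, these correlations cannot tell whether replicates were collected in pairs. With the replicate block the log2 differences stayed as they were, and the adjusted limma p was 0.701 for Dpt, 0.749 for DptB, 0.701 for Dro and 0.367 for Mtk. At an unadjusted p under 0.05 and over 2-fold, 1 of the 4 genes was called, against 3 with the block (Dpt, Dro and Mtk), 3 without scaling and 4 without RasV12 2. Over all genes, the calls higher in RasV12 were 176 of 7575, 186 of 7575, 254 of 7575 and 118 of 7300 in these settings. Dro and Mtk were called with a pseudocount of 0.1, with run 3B, and without RasV12 1 or RasV12 3, and Mtk alone under the others. The counts over all genes were 237 of 7575, 181 of 7593, 275 of 7568 and 301 of 7592 in those 4 settings. The group difference in the log2 ratio of Mtk to Dpt, an alternative set chosen after seeing the data, was 0.44 to 1.21 with 1 library left out. Depth limited Dro and Def most, with 2 to 6 and 0 fragments in the controls.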

Other observations

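AttB, which encodes an attacin, was listed at 0 in 5 libraries and at 700.2 scaled FPKM in RasV12 3, and PGRP-LF, a receptor inhibitor of the Imd pathway, was listed at 0 in the same 5 and at 18.75 in RasV12 3. Both were picked out after their values were seen. The related genes AttA and PGRP-LC were above 0 in every library, and a value of exactly 0 can be a failed estimate, so that no fold is given for either gene.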
